A study of Mus musculus with 16 samples.

Results

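Hematopoietic niche factors are secreted or surface proteins with which stromal cells hold, feed and instruct blood stem and progenitor cells. The genes described here are 10 such factors, namely Cxcl12, Kitl, Csf1, Ptn, Fgf7, Gas6, Thpo, Vcam1, Il7 and Angptl2. They were chosen by gene symbol, with earlier results of these data known. All 10 were found among the 43629 genes of the deposited polyA read tables and among the 24544 genes of the deposited FPKM table. Their mRNA was measured in 2 mouse stromal lines derived from fetal liver of C57BL/6 embryos at 14.5 days post coitum, as cells and as the exosomes that the cells secreted. The labels give the line AFT024 as supportive of hematopoietic stem and progenitor cells and the line BFC012 as non-supportive. No genetic change or treatment is given for any group.

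The 4 polyA groups were therefore AFT024 cells, BFC012 cells, AFT024 exosomes and BFC012 exosomes, in that order wherever 4 values follow each other. The labels list 2 samples per group, 8 polyA samples of the 16 in the series, but the replicates were merged before deposit, which leaves 1 value for each group. The exosome replicates were technical, from RNA extractions that had been pooled and then split. Each line stands for its class alone, so a difference between the lines and a difference between supportive and non-supportive stroma cannot be told apart. No comparison had a replicate check and no statistical test was possible. In bulk RNA of this kind, fewer cells of a type and less RNA per cell cannot be told apart.

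Depth was 39385534, 35874383, 9038471 and 16344350 reads. Levels are given as FPKM (fragments per kilobase of transcript, scaled to library size, the authors' values) and as whole reads recovered from the authors' normalised tables. RPM is the read count of a gene scaled to the total reads of its group. A read ratio compares the whole reads of a pair of groups, scaled by the median of ratios over all 4 groups, with an exact Clopper-Pearson 95% interval. That interval covers counting error only and holds no variation between cultures. It can be too narrow even for counting error, because PCR reads are not independent molecules. A gene was called higher or lower when its read ratio passed 2-fold, provided that it had at least 20 reads in the compared groups together.

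As background, CXCL12 is the chemokine that keeps stem cells in the niche through its receptor CXCR4, and stem cell factor, the product of Kitl, maintains them through the receptor tyrosine kinase KIT. Both are made by perivascular stroma of the bone marrow and fetal liver, and deletion of either in mouse stroma depletes stem cells. The other factors act through their own receptors, interleukin 7 through its receptor on lymphoid progenitors, and VCAM1 by holding cells through the integrin that contains the alpha 4 chain.

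The stromal identity of the lines was checked against marker genes. Vim, an intermediate filament gene, stood at 2591, 1597, 554 and 497 FPKM, and Col1a1, a collagen gene, at 284, 71.2, 3.85 and 5.92 FPKM. Of 8 stromal markers, 6 in the AFT024 cells and 5 in the BFC012 cells reached 1 FPKM. The marker short of it in BFC012 alone was Col1a2, a further collagen gene. Col1a2 stood at 6.91 and 0.0716 FPKM in the cells, from 1717 and 12 reads. Dcn lay on the other side, at 4.18 and 46.1 FPKM. Of the 6 stromal markers with enough reads in cells, 3 were higher in AFT024, 1 was lower and 2 lay within 2-fold. Lum had 0 reads and 3 reads and Thy1 had 1 read and 0 reads in the cells of the lines. The pan-leukocyte gene Ptprc had 1, 2, 2 and 1 reads, so a defining blood cell marker was near 0 in every group. The 6 of 8 hematopoietic markers with an FPKM summed to 53.9, 53.7, 11.3 and 8.09 FPKM, of which Cd34, also known in stromal cells, gave 39.8, 43.2, 4.49 and 3.92. The myeloid marker Itgam gave 10.6, 8.50, 6.43 and 3.54 FPKM from only 3, 5, 2 and 5 reads. Mesothelial markers differed between the lines. The 5 genes summed to 38.6, 218, 13.2 and 38.6 FPKM. Upk3b stood at 0.0482 and 139 FPKM in the cells, Wt1 had 0 and 1226 reads, Lrrn4 0 and 155 and Upk1b 0 and 3346. Msln alone of the 5 was on the other side, with 38.5 FPKM for AFT024 cells against 17.0 for BFC012 cells. These markers moved with the same contrast as Cxcl12 and Gas6 below, and their part in those results was not tested. The 5 of 6 hepatoblast markers with an FPKM summed to 0.202 and 12.3 FPKM in the cells of the lines, the 5 epithelial markers to 0.738 and 6.51, the 6 endothelial markers to 3.12 and 12.0, and the 4 of 6 erythroid markers with an FPKM to 1.73 and 1.76. Few genes made up these sums. Foxa2 alone of the hepatoblast markers reached 1 FPKM in BFC012 cells, at 11.75, while Ttr had 0 reads. Flt1 gave 2.72 and 11.49 FPKM of the endothelial sums, and Epor 1.61 and 1.65 of the erythroid sums. Cdh1 and Krt19 gave 4.01 and 2.03 FPKM of the epithelial sum in BFC012 cells.

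RefSeq start-site windows (250 bases before and 50 after the start, GRCm38.p6) were available for 8 of the 10 genes, in 9 windows. The windows of Cxcl12 and Kitl, the best known factors of the set, and of Gas6 and Angptl2, whose levels stood farthest apart between the lines in cells and exosomes alike among genes with reads in every group, are shown 5′ to 3′ on the strand of the gene. Capitals mark matches to the motifs named in the next paragraph. The windows lie at chr6:117168285-117168584 (+ strand) for Cxcl12, chr10:100015571-100015870 (+ strand) for Kitl, chr8:13494486-13494785 (- strand) for Gas6 and chr2:33215711-33216010 (+ strand) for Angptl2.
Cxcl12: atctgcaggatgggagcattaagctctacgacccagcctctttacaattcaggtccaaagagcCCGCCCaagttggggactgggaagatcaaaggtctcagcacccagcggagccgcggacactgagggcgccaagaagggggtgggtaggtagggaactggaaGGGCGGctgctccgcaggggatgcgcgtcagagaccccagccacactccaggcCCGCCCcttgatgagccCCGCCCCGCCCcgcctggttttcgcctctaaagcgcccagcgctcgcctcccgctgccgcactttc
Kitl: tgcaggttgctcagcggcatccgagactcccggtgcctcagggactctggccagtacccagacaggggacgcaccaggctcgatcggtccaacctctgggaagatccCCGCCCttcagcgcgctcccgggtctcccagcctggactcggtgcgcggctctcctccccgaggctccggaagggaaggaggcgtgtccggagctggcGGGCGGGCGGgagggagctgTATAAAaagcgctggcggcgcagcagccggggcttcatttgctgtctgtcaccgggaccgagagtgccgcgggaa
Gas6: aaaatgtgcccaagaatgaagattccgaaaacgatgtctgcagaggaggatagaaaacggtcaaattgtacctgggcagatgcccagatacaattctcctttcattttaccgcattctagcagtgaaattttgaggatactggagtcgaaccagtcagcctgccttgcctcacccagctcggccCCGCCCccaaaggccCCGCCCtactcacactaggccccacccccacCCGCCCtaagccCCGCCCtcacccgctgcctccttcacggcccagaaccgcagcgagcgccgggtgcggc
Angptl2: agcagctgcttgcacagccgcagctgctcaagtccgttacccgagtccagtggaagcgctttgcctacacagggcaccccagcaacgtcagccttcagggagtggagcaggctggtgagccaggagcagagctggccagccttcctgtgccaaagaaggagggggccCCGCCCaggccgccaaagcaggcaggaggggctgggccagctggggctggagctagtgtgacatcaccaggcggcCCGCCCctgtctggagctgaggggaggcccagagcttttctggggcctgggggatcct

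A TATA box (TATAAA, searched on the strand of the gene) was found in the Kitl window alone of the 9, starting at position -25 where the start site is 0. It is held by 8.32% of all 32851 RefSeq windows of this length. A GC box (GGGCGG, either strand) was found in 6 of 9 windows, against 35.7% of all windows, with 5 matches in Cxcl12, 4 in Gas6, 3 in Kitl and 2 in Angptl2. Some of these matches overlap each other in Cxcl12 and Kitl. A CCAAT box (CCAAT, either strand) was found in the windows of Fgf7, Ptn and Thpo, against 37.4% of all windows, and in Thpo it overlaps a GC box. The NF-kB core motif, searched on either strand, was found in Csf1 at position -154 and is held by 0.155% of all windows. The AP-1 site (TGACTCA, 5.2% of all windows) and the hypoxia response core (ACGTG, 19.6%) matched none of the 9. The GC content was 64.7% for Cxcl12, 68.7% for Kitl, 58.3% for Gas6 and 66.7% for Angptl2, against a median of 52.7% over all windows. The windows held 20, 28, 17 and 9 CpG dinucleotides, in the same order, against a median of 7. Gas6, which was higher in BFC012, and Angptl2, which was higher in AFT024, thus both held GC boxes. A match is a description of these letters and not of a site in use.

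Cxcl12 made up most of the niche factor mRNA in every group. It stood at 620, 1540, 124 and 324 FPKM, which placed it 133rd, 38th, 283rd and 136th among the 16403 protein-coding genes of the table. It took 54.2% of the reads of the 10 genes in AFT024 cells, 78.0% in BFC012 cells, 76.9% in AFT024 exosomes and 82.5% in BFC012 exosomes. The 10 genes together took 0.344%, 0.603%, 0.114% and 0.202% of all reads, so their summed share was highest in the cells of the non-supportive line. That order came from Cxcl12, which alone took 0.186%, 0.471%, 0.0878% and 0.167% of all reads. Without Cxcl12, the summed share was larger in AFT024 cells than in BFC012 cells. Csf1 was the second by FPKM in 3 groups, and Gas6 took that place in BFC012 exosomes. Kitl was far lower, at 8.88, 10.1, 3.20 and 5.33 FPKM, and was the seventh of the 10 in the cells of each line and the fifth in the exosomes of each. Thpo and Il7 were at the bottom of the order in all 4 groups.

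**Figure D1:**
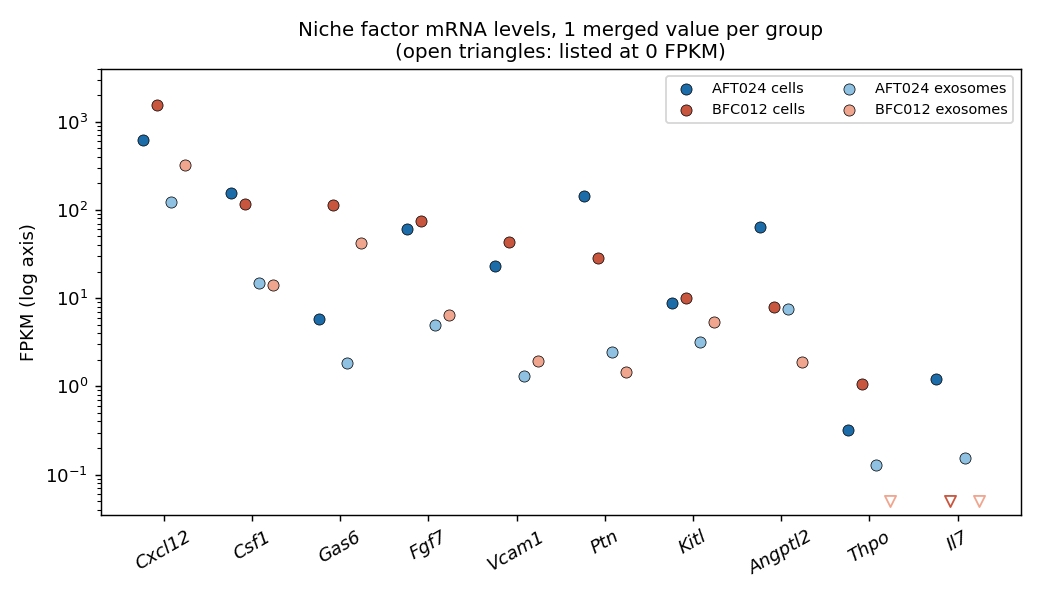
FPKM of the 10 niche factor genes (log axis) in AFT024 cells, BFC012 cells, AFT024 exosomes and BFC012 exosomes, 1 merged value per group with no error available; open triangles stand for genes listed at 0. Cxcl12 lies above the other genes in all 4 groups, and Gas6, Ptn and Angptl2 show wide gaps between the lines.

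**Figure D2:**
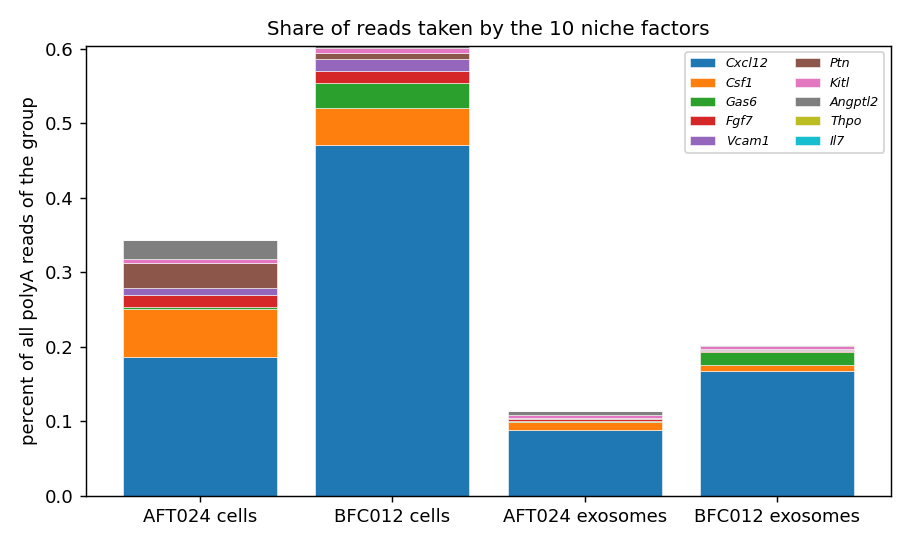
Percent of all polyA reads of each group taken by the 10 niche factor genes, stacked by gene from 0. The bars reach 0.344%, 0.603%, 0.114% and 0.202%, and Cxcl12 is the largest segment in each.

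The question of the comparison between the lines as cells is which factors the supportive and the non-supportive stroma express differently. Of the 10 genes, 3 were higher in AFT024 cells (Ptn, Angptl2 and Il7), 3 were lower (Cxcl12, Gas6 and Thpo) and 4 lay within 2-fold (Kitl, Csf1, Fgf7 and Vcam1). Over all 14203 genes with enough reads, 11.9% were called higher and 9.46% lower. In FPKM relative to the median gene 3 of the 10 were higher and 2 lower, with Thpo short of 2-fold, where 7.93% of all genes were called higher and 5.9% lower. The median read ratio of the 10 genes was 0.992, beside 0.997 for all genes. The factors thus did not lie on the same side: Cxcl12 was the most abundant of them and was lower in the supportive line.

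Cxcl12 (chr6:117168535-117181367 in mm10, + strand) gave 73395, 168891, 7936 and 27285 reads. BFC012 held more than AFT024 in each compartment, and each cell group held more than its exosomes. In cells the read ratio of AFT024 to BFC012 was 0.405 (0.401 to 0.408), or 2.47-fold lower in AFT024. In exosomes it was 0.508 (0.496 to 0.521), just short of 2-fold in reads but past it in FPKM relative to the median gene, at a log2 difference of -1.15. Exosomes against cells gave 0.631 (0.616 to 0.646) in AFT024 and 0.502 (0.496 to 0.508) in BFC012. These too were short of 2-fold in reads and past it in FPKM, with log2 differences of -1.20 and -1.44 relative to the median gene. The RPM value that stood behind each FPKM of Cxcl12 was 2.36 times as high in AFT024 exosomes as in the cells, beside 1.91 for the median of 8224 genes. In BFC012 it was 1.69 times as high, beside 1.40.

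Kitl (chr10:100015630-100100413, + strand), the gene of stem cell factor, gave 2343, 2450, 372 and 828 reads. In RPM this was 59.5 in AFT024 cells (57.1 to 62.0), 68.3 in BFC012 cells (65.6 to 71.1), 41.2 in AFT024 exosomes (37.1 to 45.6) and 50.7 in BFC012 exosomes (47.3 to 54.2), with exact Poisson intervals. The order was BFC012 cells, AFT024 cells, BFC012 exosomes and AFT024 exosomes, with intervals that did not overlap, but no contrast between lines or compartments reached 2-fold after scaling. The read ratio of AFT024 to BFC012 was 0.890 (0.841 to 0.942) in cells and 0.785 (0.693 to 0.888) in exosomes. Exosomes against cells gave 0.926 (0.828 to 1.03) in AFT024 and 1.05 (0.969 to 1.14) in BFC012. With this scaling Kitl was the factor nearest to the same level in exosomes and cells of each line, while under upper-quartile scaling Gas6, at 0.988, and Thpo, at 0.941, were nearer in AFT024. The side of 1 on which these last ratios lay depended on the scaling. By total reads they were 0.692 and 0.742, and by upper-quartile scaling 1.15 and 1.19.

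Csf1 (chr3:107741048-107760469, - strand) encodes macrophage colony-stimulating factor, which drives monocytes and macrophages. It gave 25597, 17728, 994 and 1253 reads, at 154, 116, 14.9 and 14.2 FPKM. AFT024 was the higher line in cells and in exosomes, short of 2-fold, with read ratios of 1.34 (1.32 to 1.37) and 1.39 (1.27 to 1.51).

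Fgf7 (chr2:126034658-126091185, + strand), the gene of keratinocyte growth factor, which signals to epithelial cells, gave 6453, 5493, 223 and 413 reads. Its read ratio in cells was 1.09 (1.05 to 1.13), slightly above 1. Its FPKM lay on the other side, at 60.3 and 74.7 in the same order. Each FPKM corresponded to 2.72 RPM in AFT024 cells and 2.05 in BFC012 cells, so the direction of Fgf7 between the lines depended on the measure. In exosomes the read ratio was 0.944 (0.798 to 1.11), an interval that holds 1.

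Ptn (chr6:36715663-36811361, - strand) encodes pleiotrophin, a heparin-binding growth factor known to expand mouse blood stem cells in culture. It gave 13381, 2504, 99 and 81 reads, at 142, 28.7, 2.43 and 1.45 FPKM. AFT024 cells stood above the other 3 groups, and exosome levels were low in each line. The read ratio of AFT024 to BFC012 was 4.97 (4.77 to 5.19) in cells. In exosomes it was 2.14 (1.58 to 2.90), a call that ended in FPKM relative to the median gene, where the log2 difference was 0.71.

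Angptl2 (chr2:33216069-33247717, + strand), an angiopoietin-like gene whose protein binds the receptor encoded by Pirb in mouse, gave 9735, 1115, 500 and 168 reads. At 64.0, 7.98, 7.48 and 1.89 FPKM, AFT024 was the higher line in each compartment. The read ratio was 8.13 (7.64 to 8.65) in cells and 5.20 (4.36 to 6.23) in exosomes. The gene overlaps Ralgps1 on the opposite strand, with no shared exonic base, and Ralgps1 had 143 and 259 reads in the cells of the lines.

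Gas6 (chr8:13465374-13494535, - strand) encodes the vitamin K-dependent ligand of the receptors AXL, TYRO3 and MERTK. It gave 686, 12098, 94 and 2865 reads, at 5.87, 113, 1.84 and 41.9 FPKM. BFC012 exosomes held more Gas6, at 175 RPM (169 to 182), than AFT024 cells, at 17.4 (16.1 to 18.8). The read ratio of AFT024 to BFC012 was 0.0528 (0.0488 to 0.0570) in cells and 0.0573 (0.0462 to 0.0704) in exosomes, or 18.9-fold and 17.4-fold lower in AFT024. Gas6 was thus the only factor called lower in AFT024 in cells and in exosomes by reads.

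Vcam1 (chr3:116110020-116129688, - strand), the vascular cell adhesion molecule on the stromal surface, gave 3596, 6112, 88 and 179 reads, at 23.2, 42.7, 1.30 and 1.95 FPKM. BFC012 cells stood above AFT024 cells, short of 2-fold, with a read ratio of 0.548 (0.525 to 0.571). In exosomes the ratio was 0.859 (0.658 to 1.11), an interval that holds 1.

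Thpo (chr16:20725158-20734511, - strand), the gene of thrombopoietin, gave 23, 60, 3 and 7 reads, at 0.319, 1.05, 0.128 and 0 FPKM. Its read ratio in cells was 0.357 (0.211 to 0.586), a call that ended in FPKM relative to the median gene with a pseudocount of 1, at a log2 difference of -0.62, but held with a pseudocount of 0.1, at -1.44. Thpo shares 239 exonic bases with Chrd on the opposite strand, and Chrd had 67, 245, 26 and 133 reads. The use of strand in the authors' counting is not given in the sources used here, so reads of Thpo and Chrd in these bases cannot be told apart. The exosome counts of Thpo were too few for a comparison between the lines.

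Il7 (chr3:7569994-7613760, - strand), which encodes a growth factor of lymphoid progenitors, was found in AFT024 alone. It gave 110, 0, 5 and 0 reads and 1.21, 0, 0.156 and 0 FPKM. Set against a floor of 3 reads in BFC012 cells, which stands at 0.0836 RPM, Il7 was 34.1-fold higher in AFT024 cells. In FPKM relative to the median gene it was 2.24-fold higher with a pseudocount of 1 and 13.3-fold with 0.1. With counting error in the 110 reads, the exact 95% interval of the ratio had a lower limit of 27.3. In exosomes 5 reads stood against 0 in BFC012, where the floor of 3 reads is 0.184 RPM and the upper limit of the exact Poisson interval is 0.226 RPM. Il7 shares 105 exonic bases with the antisense gene Gm16685, which had 3, 0, 0 and 2 reads.

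**Figure D3:**
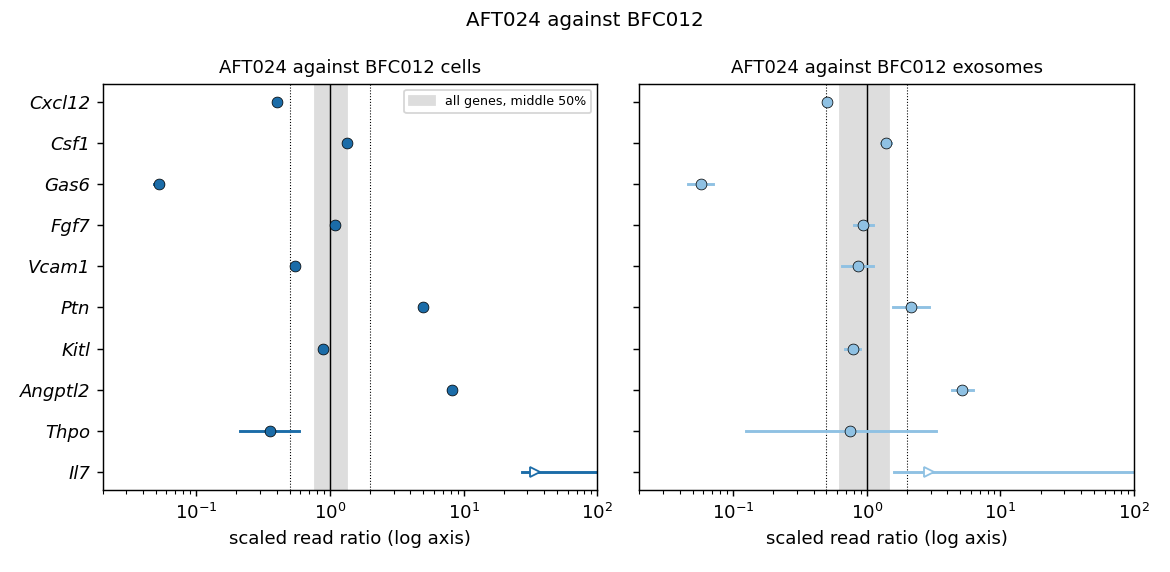
Scaled read ratio of AFT024 to BFC012 (log axis) for the 10 niche factor genes, in cells (left) and exosomes (right). Points are ratios with exact 95% counting intervals, dotted lines mark 2-fold and the grey band is the middle 50% of all genes. The open triangles of Il7 are its ratios to a floor of 3 reads in BFC012. In exosomes Il7 had too few reads for a call. Gas6 lies far to the left and Angptl2 and Ptn to the right in each panel.

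In the comparison of the lines as exosomes, 8 genes had enough reads. Of these, 2 were higher in AFT024 (Ptn and Angptl2), 1 was lower (Gas6) and 5 lay within 2-fold. Over all 12358 genes tested, 14.1% were called higher and 15.1% lower. In FPKM relative to the median gene 1 was higher (Angptl2) and 2 were lower (Gas6 and Cxcl12), where 10.1% and 9.97% of all genes were called. The median read ratio of the 8 genes was 0.901, beside 0.945 for all genes. Ptn and Angptl2, called higher in AFT024 cells, and Gas6, called lower there, were on the same side in exosomes, while Cxcl12 was on the same side but short of the threshold.

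Exosomes were then set against their own cells, to compare relative mRNA levels between the exosome and cell libraries. No niche factor was called higher in exosomes of either line. In AFT024, 6 of the 10 genes were lower in exosomes (Csf1, Ptn, Fgf7, Vcam1, Il7 and Angptl2), where 27.9% of 13383 genes were called lower and 21.2% higher. In BFC012, 6 of 9 were lower (Csf1, Ptn, Fgf7, Thpo, Vcam1 and Angptl2), where 26.9% of 13328 genes were lower and 23.4% higher. In FPKM relative to the median gene, with a pseudocount of 1, Cxcl12 joined the lower genes of each line. Il7 left them in AFT024, at a log2 difference of 0.18, and Thpo and Angptl2 left them in BFC012, at -0.23 and -0.83. The count there was 6 lower and 0 higher in AFT024, where 23.0% and 22.4% of all genes were called, and 5 lower and 0 higher in BFC012, where 23.3% and 20.4% were. These exits depended on the pseudocount. With 0.1 the log2 differences were -0.89 for Il7 in AFT024, and -2.51 for Thpo and -1.0 for Angptl2 in BFC012. The count was then 5 lower in AFT024, where Cxcl12 stood at -0.86, and 7 lower in BFC012. Over all genes, 3724 and 3997 were lower at that setting. The median read ratio was 0.282 beside 0.842 for all genes in AFT024, and 0.363 beside 0.926 in BFC012. These ratios are relative to the other mRNAs of each library. As deposited, the FPKM of the median gene was lower in exosomes by a log2 difference of -1.11 in AFT024 and -0.80 in BFC012. Scaling by total reads would multiply every exosome-to-cell read ratio by 0.747 in AFT024 and 0.706 in BFC012, and upper-quartile scaling by 1.24 and 1.13.

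The factors differed in how their share of the exosome library compared with their share of the cell library. Ptn had the lowest exosome-to-cell ratio in AFT024, at 0.0432 (0.0351 to 0.0526), and stood at 0.101 (0.0795 to 0.125) in BFC012. Vcam1 stood at 0.143 (0.114 to 0.176) and 0.0910 (0.0780 to 0.106). Csf1 stood at 0.227 (0.212 to 0.241) and 0.220 (0.207 to 0.233), and Fgf7 at 0.202 (0.176 to 0.230) and 0.234 (0.211 to 0.258), each nearly alike in the lines. Angptl2 stood at 0.300 (0.273 to 0.328) in AFT024 and 0.468 (0.396 to 0.551) in BFC012, where the call ended under upper-quartile scaling at 0.530. Cxcl12, Gas6 and Kitl were the factors with enough reads that stayed within 2-fold in each line by scaled reads, although scaling by total reads put Cxcl12 at 0.471 and 0.355. Gas6 gave 0.799 (0.637 to 0.993) and 0.736 (0.706 to 0.767). Thpo gave 0.761 (0.146 to 2.52) and 0.363 (0.140 to 0.794), from 3 and 7 exosome reads. Il7 in AFT024 gave 0.265 (0.0844 to 0.638) from 5 exosome reads.

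**Figure D4:**
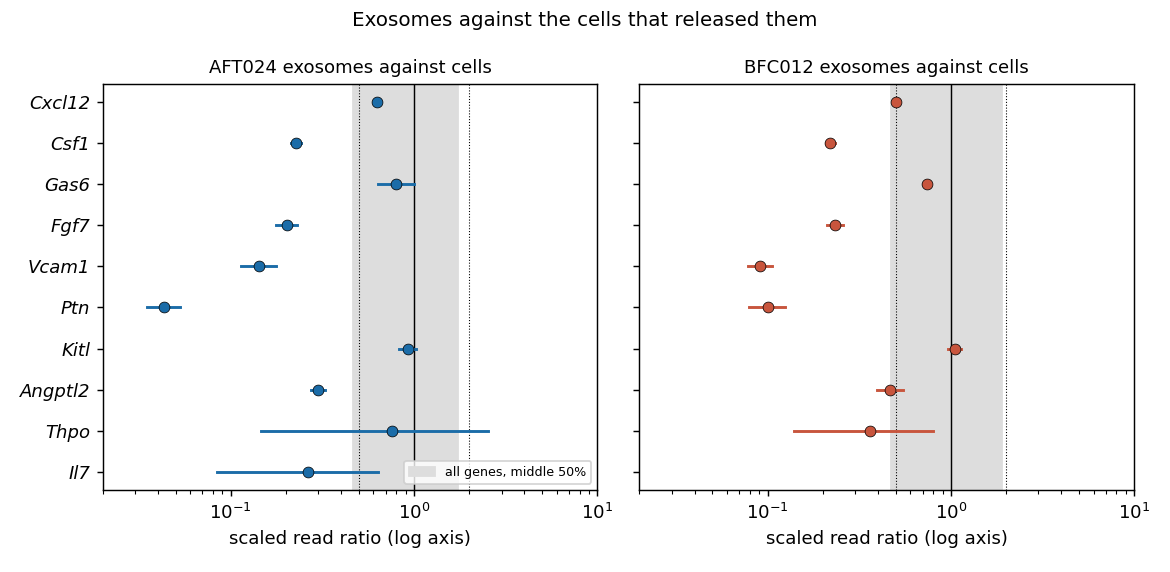
Scaled read ratio of exosomes to cells (log axis) for the 10 niche factor genes in AFT024 (left) and BFC012 (right). Points carry exact 95% counting intervals, dotted lines mark 2-fold and the grey band is the middle 50% of all genes; Il7 had 0 reads in BFC012 and has no point there. Ptn and Vcam1 lie far to the left of the band in each line and Kitl lies near 1.

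The intervals of the exosome-to-cell ratio did not overlap between the lines for 4 of the 9 genes that had a ratio in each line. The same was true of 49.1% of all 12535 genes with enough reads, so the share among the niche factors was near that of genes at large. Set as the AFT024 ratio over the BFC012 ratio, Cxcl12 gave 1.26 (1.22 to 1.29) and Vcam1 1.57 (1.21 to 2.03), so these mRNAs stood relatively higher in AFT024 exosomes. Ptn gave 0.429 (0.319 to 0.578) and Angptl2 0.640 (0.532 to 0.770), which stood relatively higher in BFC012 exosomes. For Kitl the value was 0.882 (0.771 to 1.01), for Csf1 1.03 (0.947 to 1.12), for Fgf7 0.863 (0.730 to 1.02), for Gas6 1.09 (0.872 to 1.35) and for Thpo 2.10 (0.500 to 8.82), with intervals that hold 1. Variation between cultures is not part of these intervals.

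The receptors of the factors were listed from general knowledge, with 25 receptors and binding partners. The receptors through which blood cells read the signals were at or near 0, and were named after their values had been seen, as was Axl. Cxcr4 had 0, 0, 2 and 1 reads, Kit 0, 0, 0 and 4, Il7r 0, 0, 0 and 1, and Csf1r 20, 17, 11 and 8. Axl, a receptor of the Gas6 protein, was abundant instead, at 173, 111, 25.3 and 15.7 FPKM. Of the 17 list genes with enough reads in cells, 6 were higher in AFT024 and 1 was lower, beside 11.9% and 9.46% of all genes. Their median read ratio was 1.41, beside 0.997 for all genes. The lower gene was Fgfr2, whose epithelial isoform is the receptor of the Fgf7 protein, at 3.21 and 36.8 FPKM in the cells of AFT024 and BFC012 and with a read ratio of 0.185 (0.172 to 0.198). Sdc3, a heparan sulfate proteoglycan that binds pleiotrophin, stood at 30.2 and 0.432 FPKM, with a read ratio of 70.5 (57.4 to 87.5), on the same side as Ptn. Itgb7, an integrin chain that pairs with the alpha 4 chain, had 220 and 2 reads. Sdc4, a further syndecan, gave 0.616 (0.600 to 0.633). Ncl, which encodes nucleolin and had the highest FPKM of the list, stood at 759, 595, 944 and 605 FPKM.

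**Figure D5:**
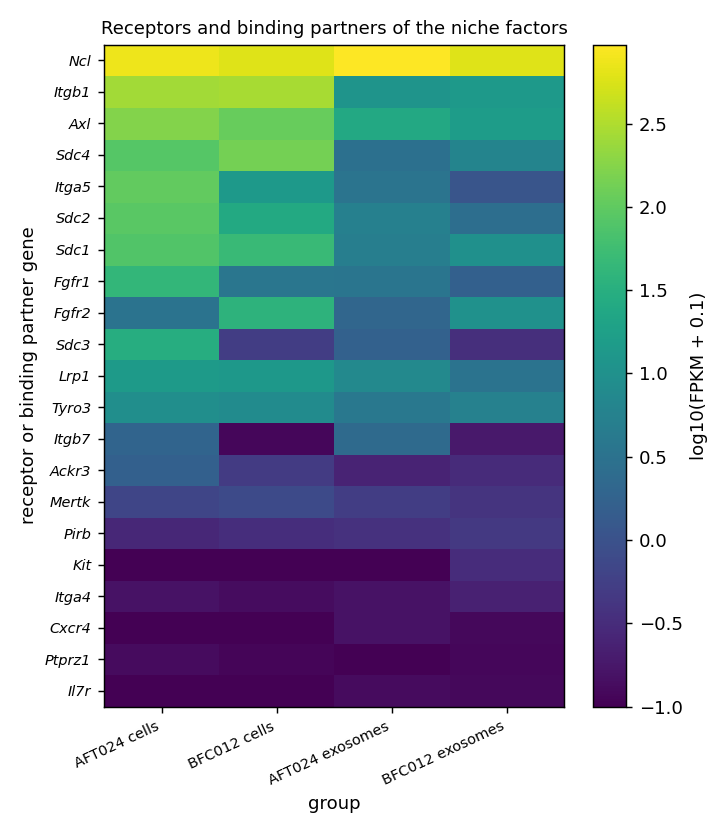
Levels of receptors and binding partners of the niche factors in the 4 groups, as log10(FPKM + 0.1), for 21 of the list genes, ordered by level. Cxcr4, Kit and Il7r are dark in the cells of each line, and Ncl, Itgb1, Axl and Sdc4 are bright.

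Of 14 enzymes that process or activate the factors, 11 had enough reads in cells, of which 3 were higher in AFT024 and 2 lower, beside 11.9% and 9.46% of all genes. Their median read ratio was 1.20, beside 0.997 for all genes. Adam10, a sheddase and the enzyme with the highest FPKM of the list, stood at 25.9 and 124 FPKM, with a read ratio of 0.211 (0.205 to 0.218). Mmp2, a matrix metalloproteinase that can cleave CXCL12, had 627 and 13 reads, a ratio of 44.9 (26.1 to 84.8). Ggcx, the carboxylase that vitamin K-dependent proteins such as GAS6 need, gave 0.819 (0.743 to 0.902) in cells, within 2-fold. Furin, a proprotein convertase, gave 1.71 (1.62 to 1.82).

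Of 17 close relatives of the factors, 8 had enough reads in cells, with 4 higher in AFT024 and 1 lower and a median read ratio of 2.06, against the same shares and median of all genes. Il34, whose product is the other ligand of the CSF1 receptor, had 183, 10, 129 and 4 reads. Its read ratio was 17.0 (9.05 to 36.1) in cells. Angptl4 stood at 21.7 and 1.16 FPKM in cells, with a ratio of 18.5 (15.0 to 23.0), on the same side as Angptl2. Angptl7 had 1 and 75 reads, on the other side, with a ratio of 0.0124 (0.000310 to 0.0713). Flt3l, the gene of the FLT3 ligand, had 31 and 50 reads and a ratio of 0.577 (0.356 to 0.921).

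Of 25 other niche factors, 21 had enough reads in cells, with 9 higher in AFT024 and 6 lower, beside 11.9% and 9.46% of all genes. Their median read ratio was 1.10, beside 0.997 for all genes. Dlk1, a non-canonical Notch family gene, stood at 931 and 0.269 FPKM and had 29686 and 9 reads. Postn, which encodes the matrix protein periostin, had 13717 and 23 reads in the cells and 3 and 4 in the exosomes. On the other side, Igfbp2 had 1 and 895 reads and Igf2 7 and 700 in the cells of the lines. In exosomes against cells, 13 of 18 of these genes were lower and 3 higher in AFT024, where 27.9% and 21.2% of all genes were called. In BFC012, 9 of 18 were lower and 4 higher, where 26.9% and 23.4% of all genes were called.

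The genes whose pattern over the 4 groups was most like that of Cxcl12 and Kitl were ranked by Euclidean distance between centred log2(RPM + 1) values, among 10009 genes that reached 10 RPM in some group. For Cxcl12 the nearest were Man1a2, Stard5, Plekhh2, Tcf4 and Pcmtd2, at distances from 0.172 to 0.244. Man1a2, for example, stood at 86.2, 197, 41.9 and 80.2 RPM, the same order of groups as Cxcl12, with AFT024 cells and BFC012 exosomes close to each other. Near Kitl were Dusp22, Phf10, Wrn and Ubac2, at distances from 0.0408 to 0.0730. Dusp22 stood at 16.2, 19.4, 11.4 and 13.9 RPM. With 4 points, likeness of this kind is a description.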

How the data were processed

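PolyA RNA was sequenced from cells and exosomes of the stromal lines, per the labels, after Trizol extraction and oligo-dT purification. The submitters' processing notes name TopHat, Cufflinks, Bowtie and the build mm10. Which tool counted reads, whether by strand, and with which annotation is not given in the sources used here. FPKM was deposited by the authors, and that table and the authors' pairwise tables hold 1 value per group. Per the file headers, the authors' pairwise tables give normalised reads (a signal, scaled by the authors within each pair), a log2 ratio, a p-value and a q-value of a Fisher test. The authors' q-values compare merged libraries and not conditions.

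Whole reads were obtained as multiples of the smallest value of each column, and 100% of values were whole within 0.01 reads. Reads were taken from the tables of 43629 genes, since the table that compares AFT024 exosomes with cells holds 16224. Reads were scaled by median-of-ratios size factors (2.149, 2.0, 0.3683 and 0.6436). Read ratios carry exact Clopper-Pearson intervals and levels exact Poisson intervals, for counting error only. A floor of 3 reads replaced a count of 0 in a ratio. As an alternative, FPKM was used as log2(FPKM + 1), relative to the median of 14969 genes that reached 1 FPKM in some group. A fold change on this scale understates that of low genes, and genes listed at 0 in both groups were left out. Other alternatives were total-read and upper-quartile scaling, a pseudocount of 0.1, a threshold of 1.5-fold and read minimums of 1 and 200. The ratio script was tested on simulated data.

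All 10 niche factors are named. Of each list, the 2 genes with the lowest and the 2 with the highest read ratio between the cells of the lines (at least 50 reads) are named, with the gene of highest FPKM, and for Cxcl12 and Kitl the 5 nearest patterns. Of the genes these rules name or list, a few are not reported here. Genes of the marker lists are named more widely, and this was done after their values were seen. The niche factors, lists and comparisons were chosen with earlier results of these data known. Gene structures came from GENCODE M21 and start-site windows from RefSeq GRCm38.p6. Python 3.11.15, numpy 2.4.6, pandas 2.3.3 and scipy 1.17.1 were used. The small RNA tables were not used here.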

Additional observations from a re-analysis of the deposited data

How the results depend on the processing

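No paired analysis was possible because the columns hold merged values with no replicate numbers, and leaving out a replicate could not be run for the same reason. Depth limits Thpo and Il7, and in exosomes the low counts of Ptn and Vcam1, and of Gas6 in AFT024 with 94 reads. Counts of all genes depended on the settings. In cells, genes higher in AFT024 were 2768 at 1.5-fold and 963 with at least 200 reads, and genes lower were 2394 and 670, with 864 in FPKM relative to the median gene, 890 in FPKM as deposited and 2457 with no filter on low reads. In exosomes, genes higher in AFT024 were 1069 in FPKM as deposited, 2943 at 1.5-fold, 2913 with no filter and 734 with at least 200 reads, and genes lower were 3434 at 1.5-fold and 1175 with at least 200 reads. Of the 10 niche factors in exosomes, the count higher in AFT024 was 1 in FPKM relative to the median gene, as deposited and with at least 200 reads, and 4 with the pseudocount of 0.1. Over all genes these counts were 1456, 1069, 734 and 2249, in the same order. The 4 included Thpo and Il7, both listed at 0 FPKM in BFC012 exosomes. Thpo had 3 reads in AFT024 exosomes and 7 in BFC012 exosomes, and Il7 had 5 and 0. The count lower was 2 in FPKM with either pseudocount, in FPKM as deposited and at 1.5-fold. Over all genes the counts lower were 1433 with the pseudocount of 1, 2108 with 0.1, 2242 as deposited and 3434 at 1.5-fold. In AFT024 exosomes against cells, genes higher were 1154 in FPKM as deposited, 5011 with no filter and 1878 with at least 200 reads, and genes lower were 8014 in FPKM as deposited. In BFC012, genes higher were 2026 with scaling by total reads, 1231 in FPKM as deposited and 5437 with no filter, and genes lower were 6665 in FPKM as deposited. The cause was not tested, apart from filters and thresholds that change which genes count by construction. Il7 in AFT024 exosomes against cells was reversed in FPKM relative to the median gene, at a ratio of 1.13, with 5 exosome reads behind it. Member ratios lay on the same side of 1 as the reported value for 38 of 39 under scaling by total reads and for 38 of 39 under upper-quartile scaling, Kitl being the exception in each. In FPKM as deposited it was 36 of 39, apart from Fgf7 between the cells, Thpo between the exosomes and Kitl in BFC012. Relative to the median gene it was 41 of 48 with the differences between the lines in exosome-to-cell ratio included. The exceptions were the same and Thpo and Il7 in AFT024 exosomes against cells, and Csf1 and Fgf7 in that difference. With the pseudocount of 0.1 it was 35 of 39, apart from Fgf7 between the cells, Thpo between the exosomes, and Kitl and Thpo in AFT024 exosomes against cells.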

Other observations

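In the authors' deposited table, Kitl in BFC012 exosomes against cells had a log2 ratio of -0.02 and a q-value of 9.88e-15, and in AFT024 a log2 ratio of -0.18 and a q-value of 1.24e-14. Scaled by total reads, the Kitl ratios were 0.742 in BFC012 and 0.692 in AFT024. For Vcam1 and Fgf7 between exosomes of the lines, the authors' deposited table gave q-values of 1.0 and log2 ratios of -0.22 and -0.08.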
